A study of Homo sapiens with 16 samples.

Results

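The genes described here are 48 named genes of the early secretory pathway, the machinery that moves new proteins into the endoplasmic reticulum (ER), glycosylates and folds them, and carries them to and from the Golgi. They were listed by name, in 9 groups of genes with a shared role, with earlier results of these data known. All 48 were found among the 35052 genes of the tables, and all 48 were among the 17559 genes that passed the filter on low counts. The cells were K562, an established human leukaemia line, labelled wild type. Every culture was grown in RPMI medium with serum. All but those sampled before treatment received 25 nM phorbol 12-myristate 13-acetate (PMA), a phorbol ester that activates protein kinase C. PMA was given to induce megakaryocyte differentiation. RNA was sequenced before treatment (0 h), within its first hours (0.5, 1.5, 3 h and then 6 h) and later (24, 48 h and then 72 h), with 2 libraries per time point and 16 in all, from total RNA depleted of ribosomal RNA. The 0 h libraries were the reference, no untreated cultures were analysed at the later times, and the medium was changed after 24 h and 48 h. Time in PMA, time in culture and medium change therefore cannot be told apart. The labels do not say whether the 2 libraries of a time point came from separate cultures, so the p-values measure the spread between these libraries.

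Secreted and membrane proteins enter the ER through the SEC61 channel while they are being made. Signal peptidase removes the signal peptide, the oligosaccharyltransferase complex attaches a preformed sugar chain to asparagine, and chaperones such as BiP (HSPA5), GRP94 (HSP90B1), calreticulin (CALR) and the protein disulfide isomerases fold the product. Vesicles with a COPII coat leave the ER with cargo, and vesicles with a COPI coat bring back escaped ER proteins that KDEL receptors recognise by a C-terminal signal. When unfolded proteins build up, the sensors IRE1 and ATF6 raise transcription of many of these genes. IRE1 does so by cutting a short segment out of the XBP1 mRNA in the cytoplasm, which shifts the reading frame and yields an active transcription factor. Megakaryocytes are secretory cells that fill granules with proteins made along this route.

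Levels within a gene are given in CPM, read counts divided by library size after scaling by the TMM factors of edgeR. Levels between genes are given in TPM, which also takes transcript length into account. A gene is called higher or lower where the adjusted p of edgeR's quasi-likelihood test, adjusted by Benjamini-Hochberg over all 17559 genes in that comparison, was under 0.05. Differences are log2 fold changes, also where only the value is given, with ± the standard error. Because the RNA came from whole cultures, a lower level cannot be assigned to fewer cells carrying a transcript or to less transcript per cell.

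The libraries held 27285773 to 54056289 estimated reads, and the members had from 141 (KDELR3) to 56049.6 estimated reads in a library. All 8 K562 markers fixed for this check were detected at 0 h, with a summed level of 4378 and 4627 TPM in the 2 libraries, 4021 and 3052 TPM at 6 h, 2660 and 2214 TPM at 24 h, and 4399 and 3185 TPM at 72 h. Of these 8 markers 5 were lower at 6 h, 6 lower and 2 higher at 24 h, and 2 lower and 2 higher at 72 h. The summed level of the 7 megakaryocyte markers was 45.7 and 78.8 TPM at 0 h and 532 and 542 TPM at 72 h, most of it ITGB3, while PF4 and GP9 were at or near 0 at both times. Of the lymphocyte markers, CD2, MS4A1 and CD3E were at or near 0 at 0 h and 72 h, and CD3D (26.5 TPM at 0 h and 64.9 TPM at 72 h) made up nearly all of the summed level of 24.3 and 36.1 TPM at 0 h and 60.3 and 75.5 TPM at 72 h. The 6 fibroblast and epithelial markers summed to 83.7 and 67.7 TPM at 0 h and 103 and 136 TPM at 72 h, with COL1A1 at 5.43 TPM at 0 h and 81.8 TPM at 72 h and LUM at 0 at both times. COL1A1 carried the rise of this sum. Of the 5 tested, 2 were higher and 2 lower at 72 h (31.7% and 26.9% of all genes), with a median log2 fold change of -0.68. The part of these marker changes in the results below was not tested. The 2 libraries of 0 h stood further apart than those of 0.5 h. The median absolute log2 difference over the members was 0.205 at 0 h and 0.037 at 0.5 h. At 72 h it was 0.216, and 44 of the 48 members were lower in replicate 2 than in replicate 1. At 3 h it was 0.148, and 44 were again lower in replicate 2, whereas 9 were at 1.5 h and 11 at 24 h. The log2 fold change at 0.5 h followed the GC content of genes (Pearson r = -0.77 across 9983 genes, which are not independent replicates). The value was -0.43 at 1.5 h and between -0.17 and -0.03 at the later times. The median GC content was 45.7% for the members and 48.8% for all genes tested.

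The members followed a course with 3 phases. Through 3 h most that differed were higher than at 0 h, at 6 h they split, and from 24 h on most were higher. By 3 h, 28 members were higher and 2 lower, while 42% of all genes were called, 21.5% higher and 20.5% lower, and without 3 h replicate 1 the total was 19. At 6 h, 19 were higher and 14 lower, against a background of 57.2% of all genes called, 27.8% higher and 29.4% lower. The 14 lower members made up 29.2% of the 48, near the background share of lower genes. At 24 h 32 were higher and 5 lower, with 58.3% of all genes called, 31.7% higher and 26.6% lower. The counts at 48 h were 29 and 6, with 54.3% of all genes called, 30.2% higher and 24.1% lower. At 72 h they were 31 and 6, with 58.6% of all genes called. The 31 members higher at 72 h made up 64.6% of the 48, against 31.7% of all genes called higher and 26.9% called lower. The median log2 fold change of the members was 0.40 by 3 h, 0.07 by 6 h, 0.61 by 24 h and 0.50 by 72 h, and that of all genes lay between -0.03 and 0.00 at these times. Most of the rises were moderate. Only 5 members were called and at least 2-fold higher at 72 h, namely HSP90B1, DAD1, KDELR3, SEC24D and CREB3L2, and 0 were 2-fold lower, against 18.2% and 10.9% of all genes.

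Differences between neighbouring time points, other than 0.5 h against 0 h, do not use the 0 h libraries as a reference. They show the fall to 6 h and the return. All 16 libraries still enter the estimate of spread behind their p-values. From 3 h to 6 h, 22 members fell and 0 rose by edgeR's test, against 22.1% of all genes called lower and 19% called higher, 41.2% in either direction. DESeq2 also called 22 lower and 0 higher, and 22 members, all lower, had an unadjusted p under 0.05. Without 3 h replicate 1 the count was 13. From 6 h to 24 h, 29 members rose and 0 fell, against 56.6% of all genes called, 30.8% higher and 25.8% lower. DESeq2 also called 29 higher and 0 lower, 31 members, all higher, had an unadjusted p under 0.05, and the count was 19 without 24 h replicate 2. From 24 h to 48 h 1 member rose (CALR) and 6 fell, with a background of 15%, 8.88% higher and 6.12% lower. The count ranged from 1 to 11 as single libraries were left out. Between 48 h and 72 h 0 members were called by edgeR or DESeq2, with a background of 1.47% (1.14% higher and 0.325% lower) and 1 member at an unadjusted p under 0.05. Earlier steps were smaller. From 1.5 h to 3 h 9 rose and 3 fell (background 25.1%, with 13% higher and 12.1% lower), and from 0.5 h to 1.5 h SEC61A1 alone was called, higher (background 5.77%, with 4.11% higher and 1.67% lower). The 12 calls from 1.5 h to 3 h became 4 and 7 without replicate 1 or 2 of 1.5 h, and 6 when replicate 1 of 3 h was left out. At 0.5 h against 0 h 0 members were called by edgeR or DESeq2 with a background of 0.171% (0.165% higher and 0.0057% lower), 16 members had an unadjusted p under 0.05, and 12 were called without 0 h replicate 1. At 1.5 h 12 members were higher and SDF2L1 was lower (background 17.1%, with 9.05% higher and 8.05% lower), a total of 13 that became 21 without 0 h replicate 1 and 2 without 0 h replicate 2. A single edgeR test per gene for any difference among the 8 time points called 45 of the 48 members, with a background of 82.9%. SSR4, CANX and KDELR2 were not called by it, although SSR4 and KDELR2 had calls in single comparisons.

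**Figure D1:**
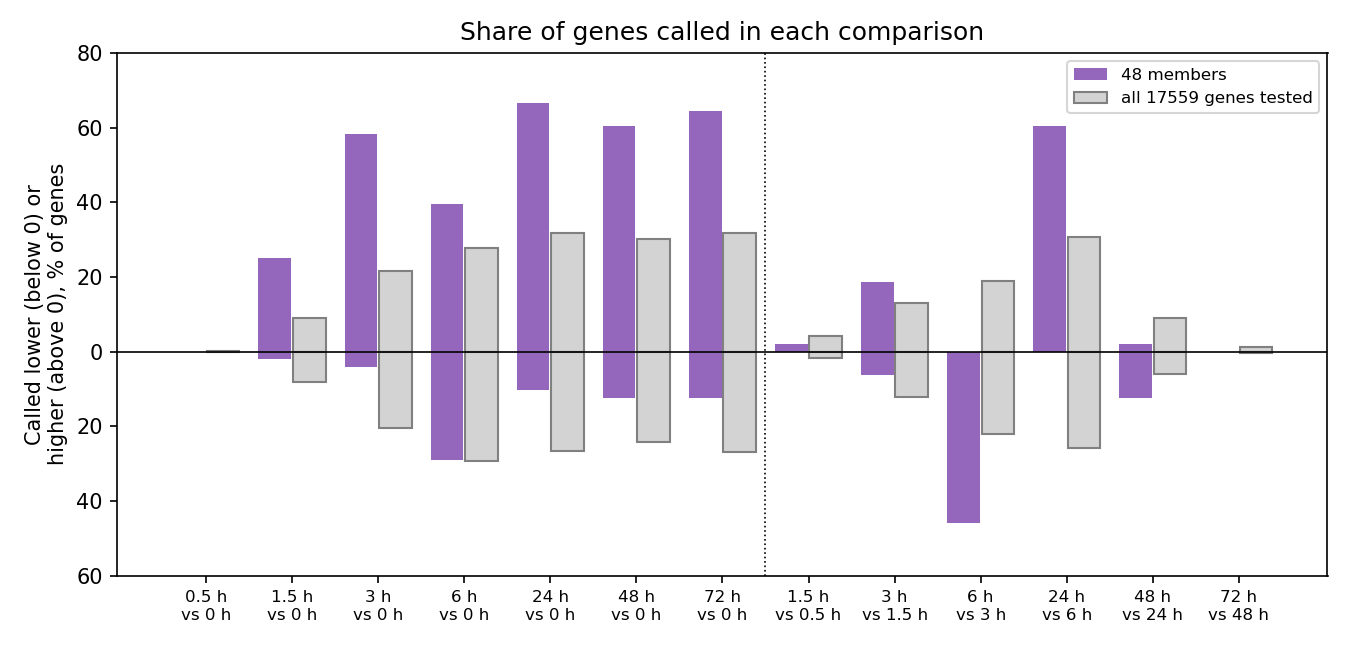
Share of the 48 members (purple) and of all 17559 genes tested (grey) called higher (bars above 0) or lower (bars below 0), in percent, for each time point against 0 h (left of the dotted line) and each step between neighbouring time points (right). The members split at 6 h against 0 h (19 higher, 14 lower), with 22 lower and 0 higher from 3 h to 6 h, and 29 higher and 0 lower from 6 h to 24 h.

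The split at 6 h depended on how libraries were scaled. TMM left the median of all genes at 6 h at 0.00, and scaling to total counts moved it to -0.35. With total counts 5 members were higher and 26 lower at 6 h. With the trend of counts with GC content removed from each library 24 were higher and 9 lower. The members took 0.965% ± 0.020 (SD, n = 2) of the matched reads before treatment, 0.775% ± 0.00058 by 6 h, 1.08% ± 0.012 by 24 h and 1.12% ± 0.060 by 72 h. Among the members called at 6 h, 13 were called the same way under all 26 alternative settings: SEC61B, SEC62, DAD1, HSP90B1 and TMED2 were higher, and HSPA5, XBP1, SDF2L1, KDELR3, SSR1, TMED10, ATF6 and SEC24D were lower. At 72 h the split moved less, to 27 higher and 10 lower with total counts. For 72 h against 6 h (background 57.2%, with 31.6% higher and 25.6% lower), 23 members were higher and 4 lower with TMM, 33 and 0 with total counts, and 17 and 12 with the GC trend removed.

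**Figure D2:**
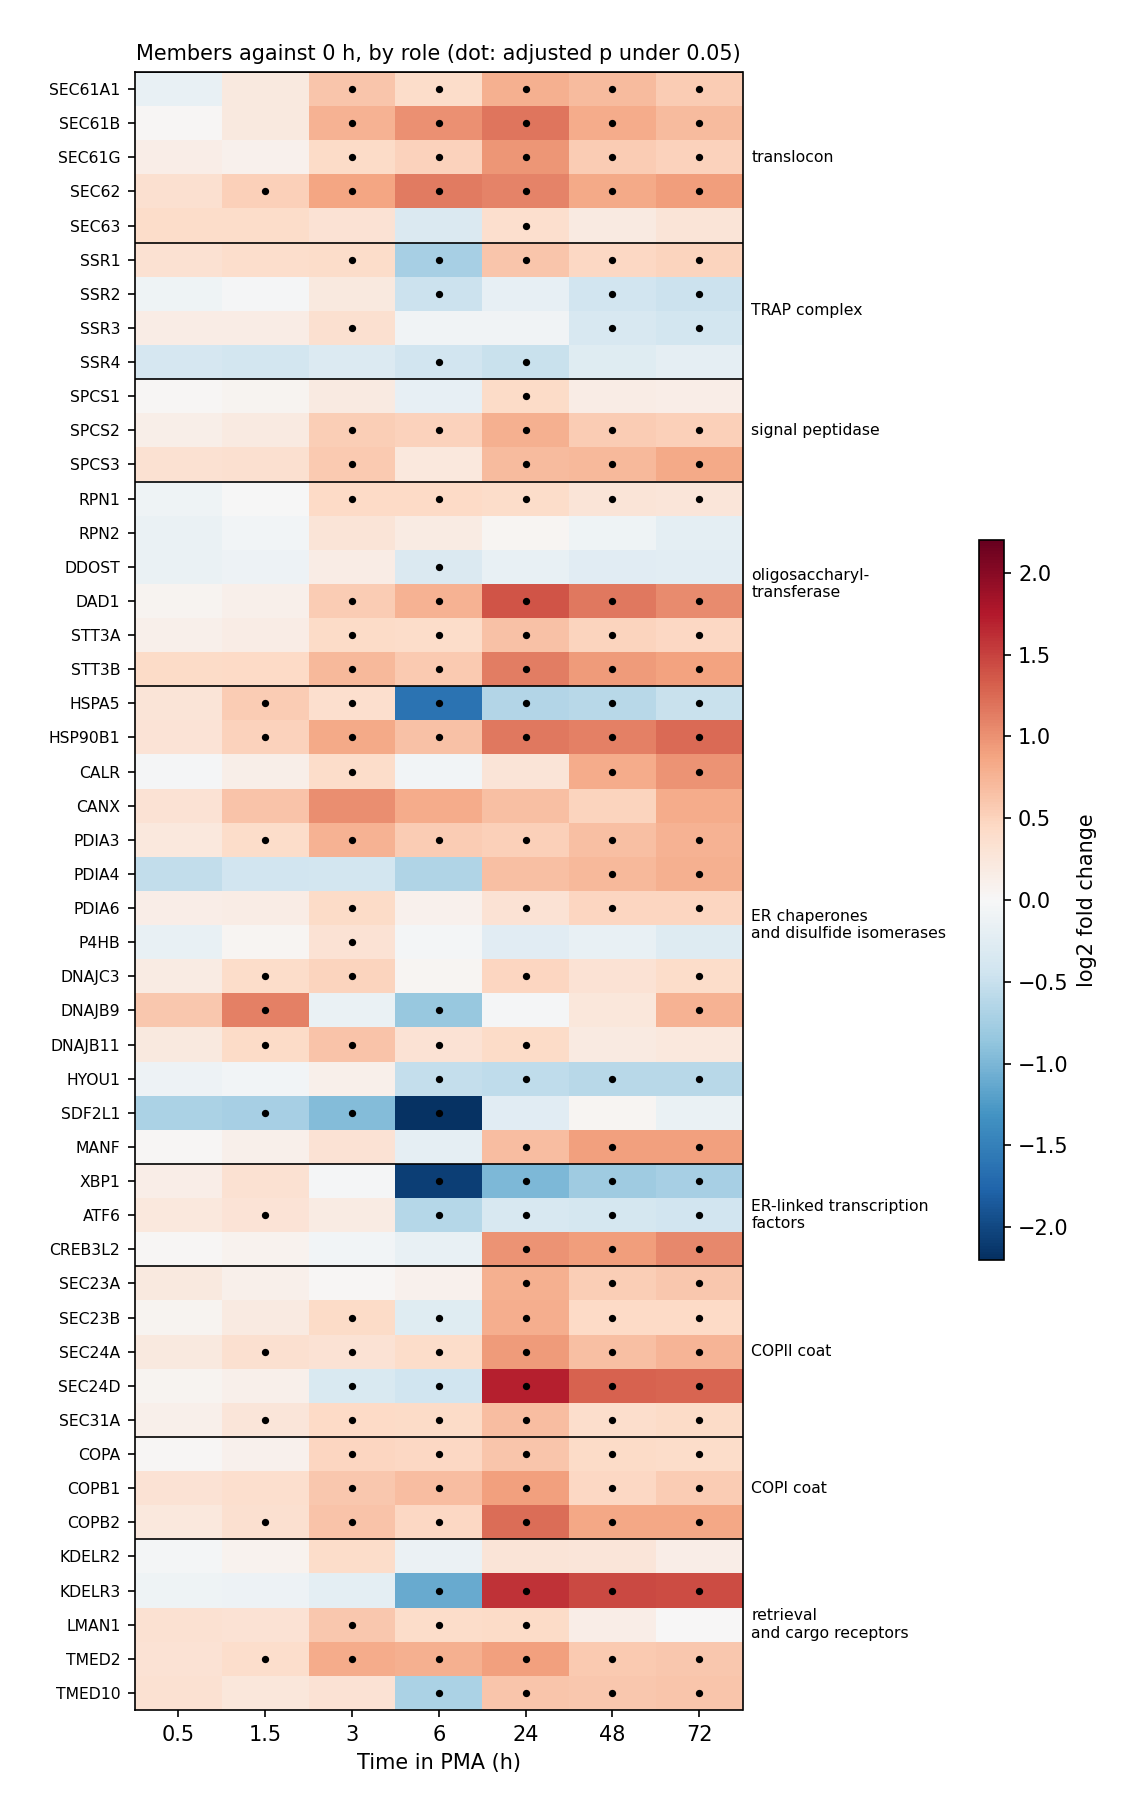
Log2 fold change against 0 h (colour, red higher and blue lower) of each of the 48 members (rows, grouped by role) at the 7 later time points (columns, not spaced to scale). A black dot marks an edgeR adjusted p under 0.05. XBP1, SDF2L1 and HSPA5 have the deepest blue at 6 h, and KDELR3 and SEC24D the deepest red from 24 h on.

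All 5 channel genes were higher at 24 h and 4 of them at 72 h, while 31.7% of all genes were higher at each of these times. SEC61A1, SEC61B and SEC61G encode the 3 subunits of the SEC61 channel, and SEC62 and SEC63 encode partners that help proteins enter after synthesis and recruit BiP. SEC62 (chr3:169966635-169998373, plus strand) had, in CPM, at 0 h 76.8 and 58.2, at 0.5 h 87.0 and 84.6, at 1.5 h 91.7 and 102, at 3 h 124 and 122, at 6 h 145 and 152, at 24 h 141 and 147, at 48 h 123 and 118, at 72 h 148 and 108. Both libraries of every later time point lay above both 0 h libraries. Its log2 fold change was 1.14 ± 0.14 at 6 h (edgeR adjusted p = 9.84e-06) and 0.92 ± 0.14 at 72 h (edgeR adjusted p = 7.03e-05). SEC61B (chr9:99222064-99230615, plus strand), the translocon gene with the highest TPM, had, in CPM, at 0 h 49.1 and 59.2, at 0.5 h 55.5 and 54.4, at 1.5 h 58.0 and 67.5, at 3 h 93.0 and 90.7, at 6 h 101 and 116, at 24 h 114 and 130.1, at 48 h 89.5 and 100.2, at 72 h 89.8 and 85.6. From 3 h on all libraries were above all earlier ones. SEC61B was at its highest mean at 24 h (log2 fold change 1.17 ± 0.12, edgeR adjusted p = 1.38e-06) and was still higher at 72 h (log2 fold change 0.70 ± 0.12, edgeR adjusted p = 1.60e-04). SEC61A1, the pore itself, was higher at 72 h by 0.57 ± 0.10 and SEC61G by 0.50 ± 0.12. SEC63 behaved otherwise: it was called against 0 h at 24 h alone (0.36, not without 0 h replicate 2 or 24 h replicate 2), fell from 3 h to 6 h (log2 fold change -0.63 ± 0.13, edgeR adjusted p = 0.00166) and rose from 6 h to 24 h (0.67). The summed level of the 5 genes was 623 ± 32.0 TPM at 0 h and 1200 ± 18.4 TPM at 24 h (SD, n = 2).

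The TRAP complex sits beside the channel and helps certain proteins through it, and its 4 subunits did not move together. SSR1 (chr6:7268306-7347446, minus strand) had, in CPM, at 0 h 289 and 227, at 0.5 h 327 and 324, at 1.5 h 324 and 349.9, at 3 h 346 and 334, at 6 h 153 and 159, at 24 h 389 and 398, at 48 h 359 and 352, at 72 h 411 and 317. The 6 h libraries were below and the 24 h libraries above every earlier library. SSR1 was lower at 6 h (log2 fold change -0.73 ± 0.13, edgeR adjusted p = 2.11e-04) and higher at 72 h (log2 fold change 0.50 ± 0.13, edgeR adjusted p = 0.00378). The 72 h call was lost without 72 h replicate 1, or with the 0 h and 0.5 h libraries as one baseline. SSR4 (chrX:153793516-153798505, plus strand), the subunit with the highest TPM, had, in CPM, at 0 h 70.4 and 104, at 0.5 h 66.9 and 67.8, at 1.5 h 64.3 and 67.7, at 3 h 76.1 and 65.1, at 6 h 65.3 and 64.5, at 24 h 60.6 and 63.8, at 48 h 72.0 and 73.2, at 72 h 78.2 and 74.1. Replicate 2 of 0 h stood above all other libraries, and the groups of 0 h and 72 h overlapped. SSR4 was called lower at 6 h (log2 fold change -0.43 ± 0.14, edgeR adjusted p = 0.0175), a call that was lost without 0 h replicate 2 or either 6 h library, and whose direction turned with the GC trend removed (0.16). It was also lower at 24 h (-0.49), but not without 0 h replicate 2 or 24 h replicate 1, or with the 0 h and 0.5 h libraries as one baseline. SSR2 and SSR3 were lower at 72 h, with log2 fold changes of -0.48 and -0.41 and edgeR adjusted p = 0.00126 and 0.00585. The SSR1 to SSR2 ratio of TPM was 0.671 ± 0.056 at 0 h, 0.559 ± 0.002 at 6 h and 1.17 ± 0.081 at 72 h (SD, n = 2).

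Signal peptidase genes were higher late. SPCS3 (chr4:176319964-176332245, plus strand), a subunit needed for cleavage, had, in CPM, at 0 h 223 and 149.5, at 0.5 h 250.3 and 217, at 1.5 h 238 and 239, at 3 h 307 and 246, at 6 h 236 and 201, at 24 h 319 and 285, at 48 h 328 and 280.2, at 72 h 412 and 255. Replicate 1 was above replicate 2 at most time points, and the 72 h libraries differed more than those of any other time point for this gene. SPCS3 was higher at 72 h (log2 fold change 0.84 ± 0.21, edgeR adjusted p = 0.0041), but not without 0 h replicate 2, without 72 h replicate 1 or with counts derived from TPM. SPCS2 (chr11:74949247-74979031, plus strand) had, in CPM, at 0 h 66.3 and 60.8, at 0.5 h 70.1 and 69.5, at 1.5 h 74.3 and 72.0, at 3 h 99.9 and 85.9, at 6 h 95.1 and 84.7, at 24 h 110.2 and 109, at 48 h 94.0 and 93.3, at 72 h 106 and 77.4. All libraries from 0.5 h on were above both 0 h libraries. Its log2 fold change was 0.79 ± 0.13 at 24 h and 0.53 ± 0.13 at 72 h, with edgeR adjusted p = 1.22e-04 and 0.00253. SPCS1 was called against 0 h at 24 h alone (0.42).

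Within the oligosaccharyltransferase the catalytic subunits and DAD1 were higher late, while RPN2 and DDOST were not called at 72 h. DAD1 (chr14:22564905-22589269, minus strand), a small subunit first known as a defender against cell death, had, in CPM, at 0 h 29.6 and 31.7, at 0.5 h 30.0 and 34.2, at 1.5 h 31.8 and 34.5, at 3 h 47.5 and 42.8, at 6 h 49.3 and 54.4, at 24 h 73.4 and 86.6, at 48 h 65.0 and 71.2, at 72 h 63.5 and 62.6. All libraries from 3 h on were above all 6 earlier libraries. DAD1 was at its highest at 24 h (log2 fold change 1.38 ± 0.11, edgeR adjusted p = 1.18e-07) and remained higher at 72 h (log2 fold change 1.04 ± 0.11, edgeR adjusted p = 1.84e-06). STT3A and STT3B, the 2 alternative catalytic subunits, were higher at 72 h by 0.46 ± 0.09 and 0.88 ± 0.15. STT3A shares exonic sequence with CHEK1 on the same strand, so some of its reads could belong to that gene. RPN2 (chr20:37178410-37241623, plus strand), the subunit with the highest TPM, had, in CPM, at 0 h 246 and 303, at 0.5 h 251 and 247, at 1.5 h 268 and 259.5, at 3 h 373 and 297, at 6 h 311 and 309, at 24 h 278 and 286, at 48 h 258 and 254, at 72 h 253 and 220.4. Its 0 h and 72 h libraries overlapped, and the difference at 72 h was -0.21 ± 0.12 (edgeR adjusted p = 0.139). DDOST was lower at 6 h (-0.32, edgeR adjusted p = 0.025), but not without 0 h replicate 2 or either 6 h library, a direction that turned with the GC trend removed (0.11), and RPN1 was higher at 72 h (0.26) but not without 0 h replicate 1 or 72 h replicate 1.

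Of the 14 chaperone and isomerase genes 8 were higher and 2 lower at 72 h (31.7% and 26.9% of all genes). HSPA5 (chr9:125234853-125241330, minus strand) encodes BiP, the main Hsp70 of the ER and a common readout of ER stress. It had, in CPM, at 0 h 882 and 938, at 0.5 h 1089.9 and 1118, at 1.5 h 1269.9 and 1414, at 3 h 1221 and 1127, at 6 h 290.5 and 302, at 24 h 561 and 604, at 48 h 588 and 599, at 72 h 706 and 592. The highest 4 libraries were those of 1.5 h and 3 h, the lowest 2 were those of 6 h, and all libraries from 24 h on lay below both 0 h libraries. HSPA5 was higher at 1.5 h (log2 fold change 0.56 ± 0.10, edgeR adjusted p = 0.00294), lower at 6 h (log2 fold change -1.62 ± 0.11, edgeR adjusted p = 1.47e-08) and still lower at 72 h (log2 fold change -0.49 ± 0.10, edgeR adjusted p = 0.00101). It fell between 3 h and 6 h (log2 fold change -1.99 ± 0.11) and rose between 6 h and 24 h (0.97 ± 0.10).

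HSP90B1 (chr12:103930107-103953645, plus strand) encodes GRP94, the Hsp90 of the ER that folds integrins and other client proteins. It had, in CPM, at 0 h 523 and 474, at 0.5 h 607 and 615, at 1.5 h 666 and 744, at 3 h 914 and 867, at 6 h 741 and 813, at 24 h 1059 and 1163, at 48 h 1043 and 1117, at 72 h 1288 and 1089.7. Every library after 0 h was above both 0 h libraries. HSP90B1 was higher at 6 h (log2 fold change 0.64 ± 0.11, edgeR adjusted p = 1.64e-04) and at 72 h (log2 fold change 1.25 ± 0.11, edgeR adjusted p = 3.06e-07), a 2.38-fold rise. The 2 chaperones, at a like level at 0 h, were therefore far apart later: the HSPA5 to HSP90B1 ratio of TPM was 1.05 ± 0.076 at 0 h, 0.230 ± 0.014 at 6 h and 0.329 ± 0.029 at 72 h (SD, n = 2).

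CALR (chr19:12938578-12944489, plus strand) encodes calreticulin, which holds calcium and binds new glycoproteins. It had, in CPM, at 0 h 456 and 537, at 0.5 h 475 and 503, at 1.5 h 511 and 574, at 3 h 678 and 629.9, at 6 h 443 and 508, at 24 h 538 and 662, at 48 h 811 and 947, at 72 h 955 and 1014. The 6 h libraries overlapped those of 0 h, and the 48 h and 72 h libraries were above all others. CALR was higher at 72 h (log2 fold change 0.99 ± 0.13, edgeR adjusted p = 1.65e-05), and most of the rise came after 24 h, when the log2 difference from 0 h was 0.28 ± 0.13 (edgeR adjusted p = 0.0804). HYOU1 (chr11:119044189-119057202, minus strand), the large Hsp70-like exchange factor of BiP, had, in CPM, at 0 h 296 and 339, at 0.5 h 302 and 288, at 1.5 h 305 and 305, at 3 h 374 and 313, at 6 h 213 and 230.1, at 24 h 214 and 219, at 48 h 221 and 193, at 72 h 218 and 199.7. All 8 libraries from 6 h on were below all 8 earlier libraries. Its log2 fold change was -0.52 ± 0.11 at 6 h (edgeR adjusted p = 9.21e-04), which fell short of the threshold with the GC trend removed, and -0.60 ± 0.11 at 72 h (edgeR adjusted p = 2.75e-04).

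SDF2L1 (chr22:21642261-21644298, plus strand), a BiP cofactor, had the largest fall of any member at 6 h with TMM scaling. Its log2 fold change at 6 h ran from -2.54 to -1.40 over the 26 alternative settings, and that of XBP1 from -2.44 to -1.76. The GC content of SDF2L1, 65.6%, was the highest of the members. SDF2L1 had, in CPM, at 0 h 55.5 and 76.5, at 0.5 h 44.0 and 37.4, at 1.5 h 42.3 and 37.1, at 3 h 42.6 and 25.8, at 6 h 16.6 and 12.7, at 24 h 54.8 and 55.8, at 48 h 68.3 and 68.1, at 72 h 56.4 and 63.2. All libraries from 0.5 h to 6 h were below both 0 h libraries, and those of 72 h lay within the range of 0 h. The log2 fold change was -0.73 ± 0.20 at 1.5 h (edgeR adjusted p = 0.0265), -2.18 ± 0.22 at 6 h (edgeR adjusted p = 1.13e-06) and -0.14 ± 0.20 at 72 h (edgeR adjusted p = 0.562). DNAJB9 (chr7:108569568-108574850, plus strand), an ER J-protein that binds IRE1, had, in CPM, at 0 h 38.7 and 26.2, at 0.5 h 52.3 and 45.5, at 1.5 h 72.8 and 67.5, at 3 h 32.5 and 26.3, at 6 h 18.9 and 17.5, at 24 h 34.1 and 30.1, at 48 h 41.4 and 35.7, at 72 h 67.3 and 43.1. It was high in both 1.5 h libraries, low in both 6 h libraries and higher again at 72 h. The log2 fold changes were 1.11 ± 0.20, -0.84 ± 0.21 and 0.77 ± 0.20. The 6 h call was lost without 0 h replicate 1. That at 72 h was lost without 0 h replicate 2 or 72 h replicate 1, or with the 0 h and 0.5 h libraries as one baseline. DNAJB9 shares exonic sequence with PNPLA8 and THAP5 on the other strand.

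Among the remaining chaperone genes PDIA3, a disulfide isomerase that works with calreticulin, was higher at 6 h (0.56) and 72 h (0.76). PDIA6 (0.47), DNAJC3 (0.41), an ER J-protein whose call was lost without 0 h replicate 2 or 72 h replicate 1, and MANF (0.90), a secreted ER stress factor, were also higher at 72 h. PDIA4 was higher at 72 h (0.79 ± 0.29, edgeR adjusted p = 0.0308), with replicates of 30.6 and 57.0 at 72 h against 22.4 and 28.4 at 0 h in CPM, and lost the call without 0 h replicate 1 or 72 h replicate 2 and with counts derived from TPM. DNAJB11, a BiP co-chaperone, was higher at 6 h (0.32; -0.044 and not called with total counts, and not called without 0 h replicate 2 or either 6 h library) and had 0.24 at 72 h (edgeR adjusted p = 0.0644). P4HB, an abundant isomerase, differed from 0 h at 3 h alone (0.31, edgeR adjusted p = 0.047). CANX, the membrane-bound relative of calreticulin, was called at no time. Its replicates stood far apart in CPM, 39.6 and 137 at 0 h, and less so in TPM, where all 16 libraries lay between 119 and 213, and its values are uncertain.

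**Figure D3:**
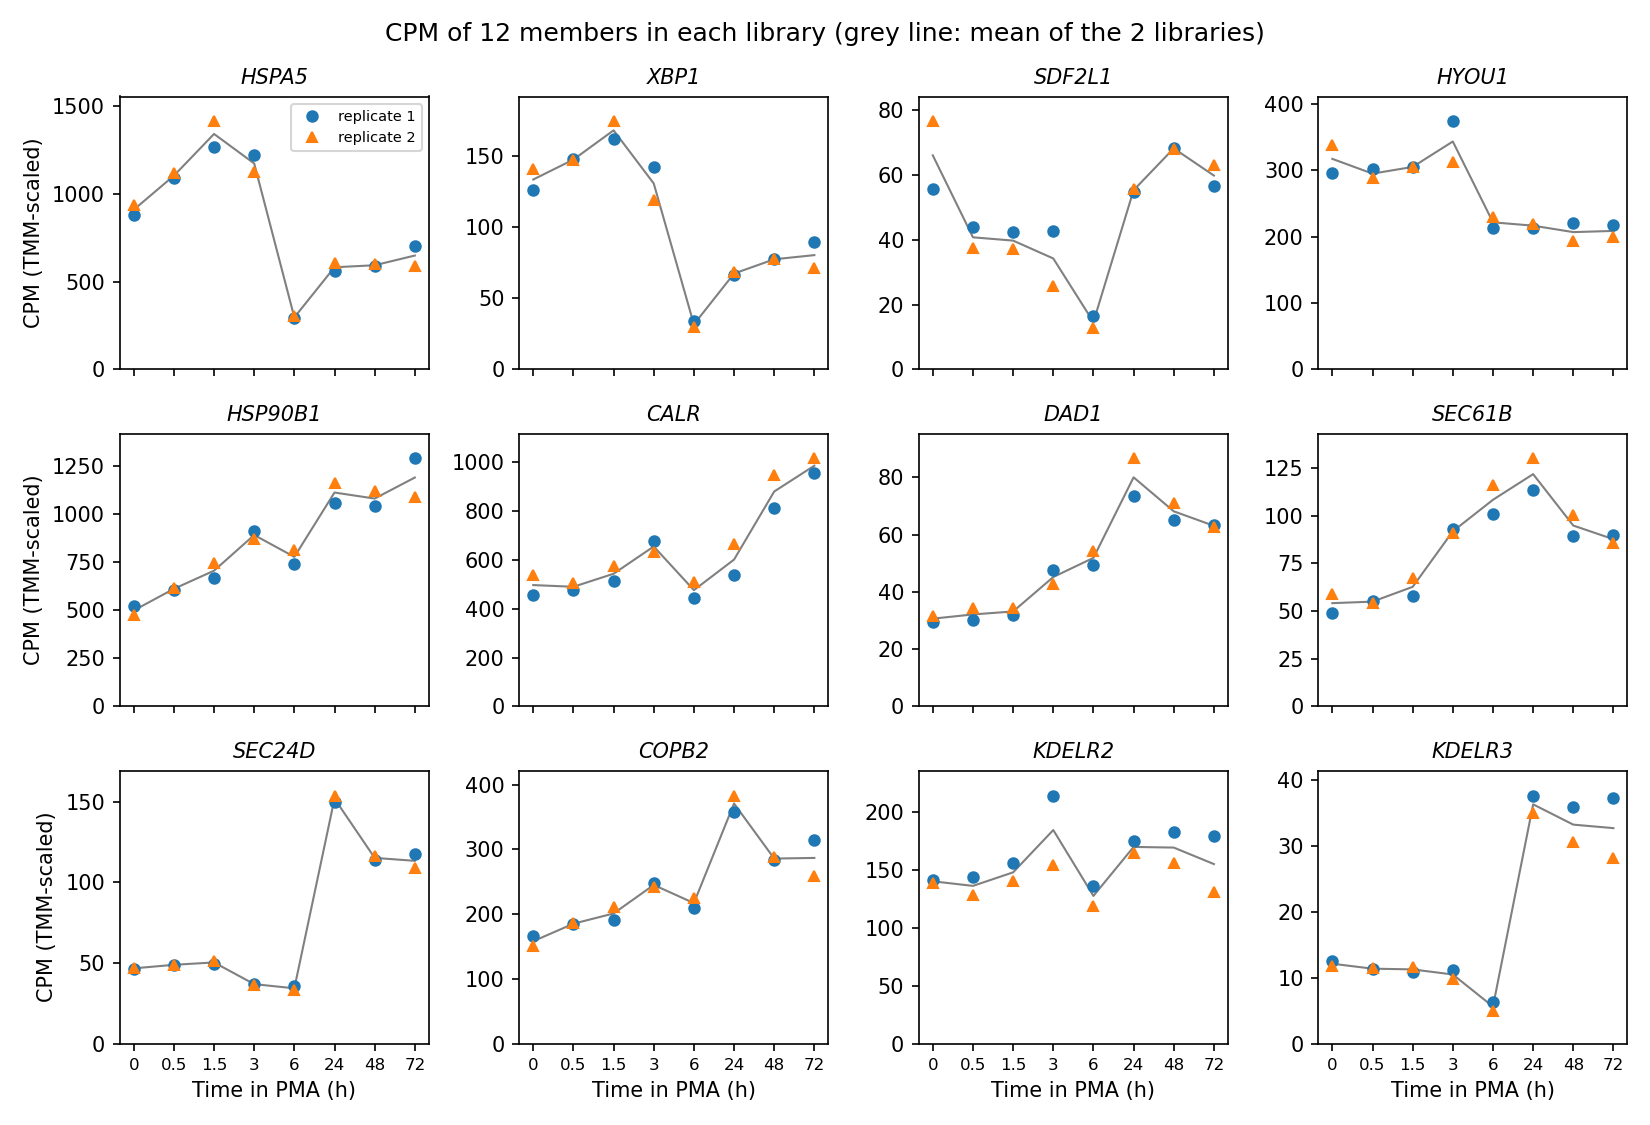
CPM of 12 members in each of the 16 libraries (blue circles replicate 1, orange triangles replicate 2, grey line their mean) against time in PMA, which is not to scale. Each vertical axis starts at 0. HSPA5, XBP1 and SDF2L1 have their lowest libraries at 6 h, HSP90B1 does not, and KDELR3 is high from 24 h on while KDELR2 is not.

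The textbook DNA elements through which ATF6 and XBP1 act were searched in the members' promoters. A promoter in the RefSeq table (GRCh38.p14, 250 bases before to 50 after the start site) was found for 42 of the 48 members. The ER stress element, searched on both strands as CCAAT and CCACG separated by any 9 bases, occurs in 22 of all 27305 promoters of the table (0.0806%), and 5 of these are members: HSPA5, XBP1, HSP90B1, CALR and CANX. Its second form, ATTGG and CCACG separated by 1 base, occurs in 15 promoters (0.0549%), among them HYOU1 and SDF2L1. The shorter element TGACGTGG occurs in 217 promoters (0.795%), among them KDELR3, SEC62, SEC24A, SEC23A, COPA, COPB1, COPB2 and HYOU1. In HYOU1 it overlaps an element of the second form. A match describes the letters only and is not a measured binding site. Many members were already known to be raised by these factors, so the member counts describe the list and are no test of enrichment. The windows show matches in 7 members whose courses are set side by side here, with the match in capitals, 5′ to 3′ on the strand of the gene. Reverse matches therefore begin with CGTGG or CCACG.
HSPA5, chr9:125241361-125241439, minus strand, 56 bases before the start site: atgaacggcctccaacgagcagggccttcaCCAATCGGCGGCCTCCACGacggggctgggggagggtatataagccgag
XBP1, chr22:28800573-28800651, minus strand, 42 bases before: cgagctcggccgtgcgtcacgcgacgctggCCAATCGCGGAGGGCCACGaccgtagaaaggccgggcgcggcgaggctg
HSP90B1, chr12:103930211-103930239, plus strand, 184 bases before: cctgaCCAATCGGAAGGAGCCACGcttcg
HSP90B1, chr12:103930316-103930344, plus strand, 80 bases before: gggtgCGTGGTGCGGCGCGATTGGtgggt
CALR, chr19:12938359-12938432, plus strand, 216 bases before: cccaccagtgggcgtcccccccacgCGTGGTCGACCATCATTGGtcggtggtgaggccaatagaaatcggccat
HYOU1, chr11:119057244-119057314, minus strand, 74 bases before: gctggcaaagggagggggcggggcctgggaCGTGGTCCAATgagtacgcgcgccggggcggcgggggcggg
SDF2L1, chr22:21642084-21642154, plus strand, 182 bases before: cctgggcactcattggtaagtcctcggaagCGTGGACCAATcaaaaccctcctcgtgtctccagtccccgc
KDELR3, chr22:38468020-38468087, plus strand, 42 bases before: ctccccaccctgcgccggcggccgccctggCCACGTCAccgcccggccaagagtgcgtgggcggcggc
Genes with the same element had different courses. Of the 5 members with the first form, HSPA5 and XBP1 were lower at 6 h (log2 fold changes -1.62 and -2.08) and at 72 h. HSP90B1 was higher at both times. CALR was not called at 6 h and was higher at 72 h, and CANX was not called. Of the second form, HYOU1 was lower at both times, and SDF2L1 was lower at 6 h and not called at 72 h. Of the members with TGACGTGG, all but HYOU1 were higher at 72 h, as were 64.6% of the 48 members and 31.7% of all genes. A link between the element and the course was not tested. SEC62, SEC24A, COPA, COPB1 and COPB2 were also higher at 6 h, SEC23A was not called at 6 h, and KDELR3 was lower at 6 h.

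The 3 transcription factors of the list are activated from the ER, 1 of them higher and 2 lower at 72 h (31.7% and 26.9% of all genes). XBP1 (chr22:28794555-28800597, minus strand) had, in CPM, at 0 h 126 and 141, at 0.5 h 148 and 147, at 1.5 h 162 and 175, at 3 h 143 and 119, at 6 h 33.8 and 29.5, at 24 h 66.5 and 68.3, at 48 h 77.5 and 77.4, at 72 h 89.5 and 71.3. The 6 h libraries were the lowest, and all 6 libraries from 24 h on were below both 0 h libraries. XBP1 was lower at 6 h (log2 fold change -2.08 ± 0.13, edgeR adjusted p = 7.05e-09), fell between 3 h and 6 h (log2 fold change -2.05 ± 0.12), and was lower at 72 h (log2 fold change -0.73 ± 0.12, edgeR adjusted p = 1.22e-04). ATF6, the membrane-bound sensor and factor, was lower at 6 h and 72 h, with log2 fold changes of -0.63 ± 0.09 and -0.43 ± 0.09 and edgeR adjusted p = 5.58e-05 and 0.00141. CREB3L2 (chr7:137874979-138002067, minus strand) encodes a related membrane-bound factor known for raising COPII genes such as SEC23A. It had, in CPM, at 0 h 123 and 126, at 0.5 h 126 and 129, at 1.5 h 128 and 136, at 3 h 126 and 115, at 6 h 112 and 112, at 24 h 236 and 256, at 48 h 229 and 244, at 72 h 260.0 and 257. All 6 libraries from 24 h on were above all 10 earlier libraries. CREB3L2 was not called at 6 h (-0.16), rose between 6 h and 24 h (log2 fold change 1.14 ± 0.08, edgeR adjusted p = 1.03e-07) and was higher at 72 h (log2 fold change 1.05 ± 0.08, edgeR adjusted p = 1.04e-07).

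The files list XBP1 transcripts with and without the 26-base segment that IRE1 removes. The segment lies at chr22:28796124-28796149 (GRCh38, minus strand) within the coding sequence. The sequences are shown because the share of reads between them is the readout that follows, with the removed bases in capitals.
XBP1 unspliced: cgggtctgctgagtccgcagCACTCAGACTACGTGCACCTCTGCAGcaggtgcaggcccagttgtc
XBP1 spliced: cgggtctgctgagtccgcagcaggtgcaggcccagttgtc
The 2 listed transcripts that lack the segment hold the same joined sequence. Their share of the estimated reads of all XBP1 transcripts that cover the segment was 23.2 and 12.8% at 0 h, 28.1 and 35.3% at 0.5 h, 20.8 and 29.3% at 1.5 h, 32.2 and 40.2% at 3 h, 46.4 and 56.9% at 6 h, 55.1 and 49.0% at 24 h, 46.6 and 39.4% at 48 h. The 72 h libraries had 46.3 and 45.7%. Every library from 6 h on except replicate 2 of 48 h was above all 8 earlier libraries. The 95% Wilson intervals were widest at 6 h, where the gene had 791 and 834 reads, and that of replicate 2 ran from 53.4 to 60.2%. These intervals cover counting error only, whereas the estimate also rests on how the program divides reads among transcripts that differ by few bases. In TPM the spliced form had 28.1 and 23.8 in the 0 h libraries, a mean of 11.8 ± 0.335 (SD, n = 2) at 6 h and 39.6 and 35.1 in the 72 h libraries. The unspliced form had a mean of 95.3 ± 9.52 at 0 h, 10.7 ± 3.58 at 6 h and 39.6 ± 6.08 at 72 h (SD, n = 2). Both forms were thus lower at 6 h than at 0 h, and at 72 h the spliced form was above its 0 h level while the unspliced form was below. The spliced form had means of 43.7 ± 6.40, 37.5 ± 8.81 and 36.0 ± 2.73 TPM at 0.5, 1.5 and 3 h (SD, n = 2). Its 72 h mean of 37.4 ± 3.17 TPM lay within the range of these first hours. The share was described without a test.

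**Figure D4:**
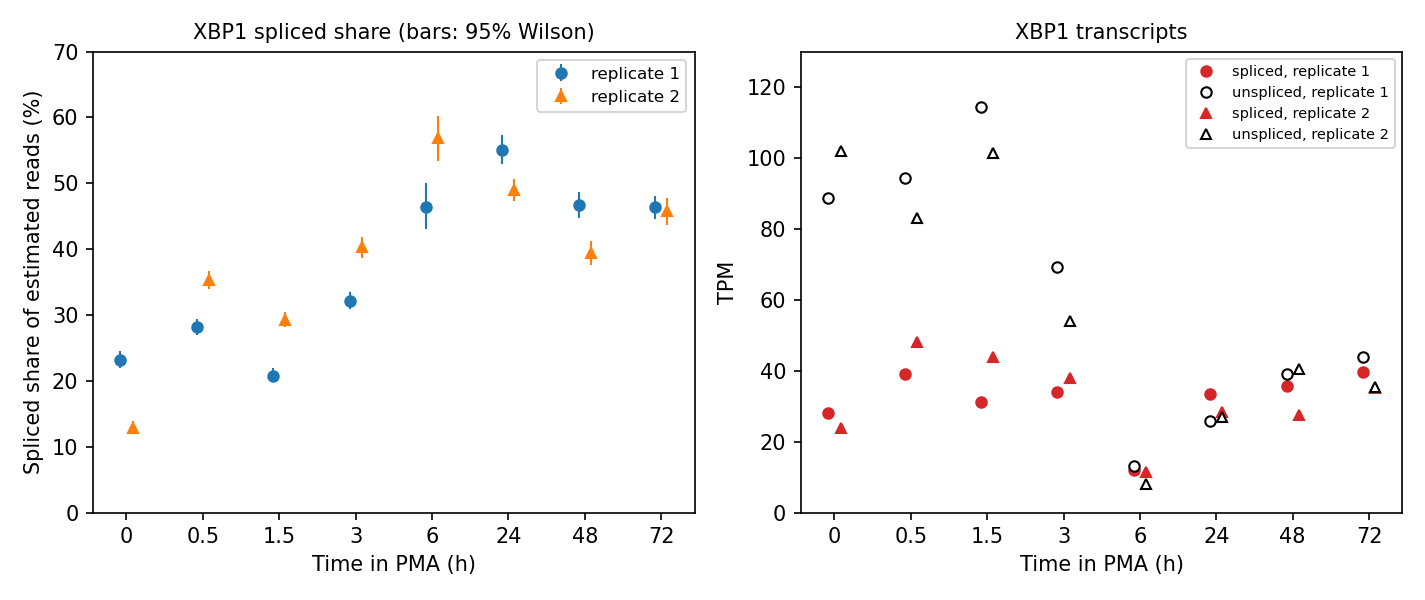
Left, share of XBP1 estimated reads assigned to transcripts without the 26-base segment, in percent, per library with 95% Wilson intervals. Right, TPM of the spliced (red) and unspliced (open) transcripts per library, against time in PMA (not to scale). The share is 12.8 to 40.2% through 3 h and 39.4 to 56.9% from 6 h on, and both forms have their lowest TPM at 6 h.

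All 5 COPII coat genes and all 3 COPI coat genes were higher at 24 h, 48 h and 72 h, while 31.7%, 30.2% and 31.7% of all genes were. SEC24D (chr4:118722823-118838683, minus strand), a cargo-binding subunit of the COPII coat, had, in CPM, at 0 h 46.2 and 47.2, at 0.5 h 49.0 and 48.8, at 1.5 h 49.6 and 51.1, at 3 h 37.3 and 36.5, at 6 h 35.6 and 33.1, at 24 h 150.1 and 154, at 48 h 114 and 116, at 72 h 118 and 109. The 3 h and 6 h libraries were below all earlier ones, and the 6 libraries from 24 h on were above all others. SEC24D was lower at 6 h (log2 fold change -0.44 ± 0.08, edgeR adjusted p = 2.17e-04), higher at 24 h (log2 fold change 1.70 ± 0.08, edgeR adjusted p = 4.38e-10) and higher at 72 h (log2 fold change 1.28 ± 0.08, edgeR adjusted p = 6.58e-09). Its relative SEC24A was higher at 72 h by 0.75 ± 0.10, and the SEC24D to SEC24A ratio of TPM was 0.933 ± 0.140 at 0 h, 0.577 ± 0.014 at 6 h and 1.54 ± 0.034 at 24 h (SD, n = 2). SEC31A (chr4:82818661-82901166, minus strand), of the outer coat, had, in CPM, at 0 h 247 and 240.2, at 0.5 h 264 and 265, at 1.5 h 284 and 299, at 3 h 335 and 326, at 6 h 314 and 336, at 24 h 375 and 405, at 48 h 309.6 and 328, at 72 h 329.9 and 321. All libraries after 0 h were above both 0 h libraries, and the log2 fold change at 72 h was 0.42 ± 0.08 (edgeR adjusted p = 5.39e-04). It fell short of the threshold with counts derived from TPM. The inner coat genes SEC23A and SEC23B were higher at 72 h by 0.59 and 0.44, and with counts derived from TPM SEC23A had 0.19 and was not called.

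In the COPI coat COPB2 (chr3:139355600-139389732, minus strand) had the largest difference at 72 h. It had, in CPM, at 0 h 166 and 150.2, at 0.5 h 184 and 186, at 1.5 h 191 and 211, at 3 h 248 and 242, at 6 h 209.9 and 224, at 24 h 358 and 383, at 48 h 283 and 289, at 72 h 315 and 259. All libraries after 0 h were above both 0 h libraries, with the 24 h libraries the highest. COPB2 was higher at 24 h (log2 fold change 1.23 ± 0.10, edgeR adjusted p = 2.35e-07) and 72 h (log2 fold change 0.86 ± 0.10, edgeR adjusted p = 6.99e-06). COPA (chr1:160288686-160343400, minus strand), the coat gene with the highest TPM in its group, had, in CPM, at 0 h 339.5 and 350.1, at 0.5 h 358 and 344, at 1.5 h 368 and 372, at 3 h 517 and 436, at 6 h 477 and 471, at 24 h 523 and 535, at 48 h 467 and 457, at 72 h 489 and 425. The 0 h libraries overlapped those of 0.5 h, and all libraries from 3 h on were above both 0 h libraries. Its log2 fold change was 0.41 ± 0.10 at 72 h (edgeR adjusted p = 0.00259). COPB1 was higher at 72 h by 0.56 (edgeR adjusted p = 0.0107), not without 0 h replicate 2 or 72 h replicate 1. COPA overlaps exons of NCSTN and COPB2 exons of MRPS22 on the other strand, and whether the counting used strand is not given in the sources used here.

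The KDEL receptors differed from each other. KDELR3 (chr22:38468062-38483447, plus strand) had, in CPM, at 0 h 12.5 and 11.7, at 0.5 h 11.2 and 11.5, at 1.5 h 10.9 and 11.6, at 3 h 11.1 and 9.82, at 6 h 6.23 and 4.99, at 24 h 37.6 and 34.9, at 48 h 35.9 and 30.5, at 72 h 37.2 and 28.1. The 6 h libraries were the lowest, and the 6 libraries from 24 h on lay between 28.1 and 37.6, against at most 12.5 before. KDELR3 was lower at 6 h (log2 fold change -1.11 ± 0.16, edgeR adjusted p = 3.38e-05), rose between 6 h and 24 h (log2 fold change 2.70 ± 0.16, edgeR adjusted p = 1.50e-08), the largest of the steps between neighbouring time points, and was higher at 72 h (log2 fold change 1.43 ± 0.15, edgeR adjusted p = 1.55e-06). It overlaps exons of DDX17 on the other strand, which had a mean of 14040 reads. KDELR2 (chr7:6445953-6484242, minus strand) had, in CPM, at 0 h 141 and 139, at 0.5 h 144 and 128, at 1.5 h 156 and 139.9, at 3 h 214 and 154, at 6 h 136 and 119, at 24 h 175 and 164, at 48 h 182 and 156, at 72 h 179 and 131. The 0 h and 72 h libraries overlapped and the difference at 72 h was 0.15 ± 0.16 (edgeR adjusted p = 0.459). KDELR2 nevertheless remained the more abundant: the KDELR3 to KDELR2 ratio of TPM was 0.102 ± 0.017 at 0 h, 0.061 ± 0.003 at 6 h and 0.291 ± 0.020 at 72 h (SD, n = 2).

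Of the cargo receptors, TMED2 (chr12:123584531-123598577, plus strand), a p24 family protein, had, in CPM, at 0 h 204 and 164, at 0.5 h 222 and 236, at 1.5 h 224 and 259.7, at 3 h 325 and 328, at 6 h 304 and 328, at 24 h 322 and 364, at 48 h 266 and 285, at 72 h 296 and 258. All libraries after 0 h were above both 0 h libraries. TMED2 was higher at 6 h (log2 fold change 0.78 ± 0.12, edgeR adjusted p = 6.91e-05) and 72 h (log2 fold change 0.59 ± 0.12, edgeR adjusted p = 7.50e-04), the latter 0.21 and not called with counts derived from TPM. Its partner TMED10 was lower at 6 h (log2 fold change -0.69 ± 0.13, edgeR adjusted p = 3.73e-04) and higher at 72 h (log2 fold change 0.61 ± 0.13, edgeR adjusted p = 9.82e-04). The 2 genes, whose products assemble in one complex, thus differed in direction at 6 h. LMAN1, the lectin that carries coagulation factors out of the ER, was higher at 6 h (0.40, not called with total counts or without 0 h replicate 2, either 6 h library or 24 h replicate 2) and at 24 h (0.42, not called under 7 of 26 alternatives, among them leaving out 0 h replicate 2 or either 24 h library), with 0.01 ± 0.15 at 72 h (edgeR adjusted p = 0.943).

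Taken by course from 6 h to 72 h, 17 members were higher at both times and 5 were lower at both, SSR2, HSPA5, HYOU1, XBP1 and ATF6. Another 6 were lower at 6 h and higher at 72 h: SSR1, DNAJB9, SEC23B, SEC24D, KDELR3 and TMED10, a course that 3.72% of all genes had. For SEC23B the value at 6 h was 0.082 with counts from TPM. SSR4, DDOST and SDF2L1 were lower at 6 h and not called at 72 h, and DNAJB11 and LMAN1 were higher at 6 h and not called at 72 h. A further 8 were not called at 6 h and were higher at 72 h: SPCS3, CALR, PDIA4, PDIA6, DNAJC3, MANF, CREB3L2 and SEC23A. SSR3 was not called at 6 h and lower at 72 h, a call lost without 72 h replicate 2, and SEC63, SPCS1, RPN2, CANX, P4HB and KDELR2 were called at neither. The mean CPM was lowest at 6 h for 19 members and at 0 h for 22, and highest at 24 h for 19, at 3 h for 12 and at 72 h for 8. Both 72 h libraries were above both 0 h libraries for 34 members, below for 8, and overlapped for 6, and over all genes tested 36.5% were above and 36.1% below.

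In level per length, P4HB (496 ± 19.2 TPM, SD, n = 2), CALR (449 ± 22.5) and HSPA5 (359 ± 7.41) led at 0 h, and CALR (904 ± 44.4), HSP90B1 (807 ± 27.5) and P4HB (450.1 ± 34.6) at 72 h. HSPA5 had rank 3 of the 48 at 0 h, rank 26 at 6 h with 92.4 ± 4.97 TPM, and rank 8 at 72 h. XBP1 went from rank 24 to 41 and then 34. PDIA4, KDELR3 and DNAJC3 were the lowest over all libraries, with mean TPM of 18.9, 21.2 and 23.5. Between the lowest and the highest library KDELR3 had a ratio of TPM of 9.67, SDF2L1 7.49, XBP1 7.17, HSPA5 5.78 and SEC24D 5.58, while RPN2 had 1.31. Sums of TPM over a group carry no TMM factors, so their differences between times depend on the scaling. The summed TPM of the chaperone group was 2650 ± 24.8 at 0 h, 1988 ± 25.2 at 6 h and 3738 ± 14.2 at 72 h (SD, n = 2). That of the transcription factors was 210 ± 4.89, 72.2 ± 8.28 and 178 ± 7.29. The COPI coat sum was 374 ± 45.1 at 0 h and 423 ± 23.8 at 6 h, with 604 and 519 in the 72 h libraries, and the TRAP sum was 843 ± 64.5, 529 ± 15.5 and 791 ± 60.6.

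**Figure D5:**
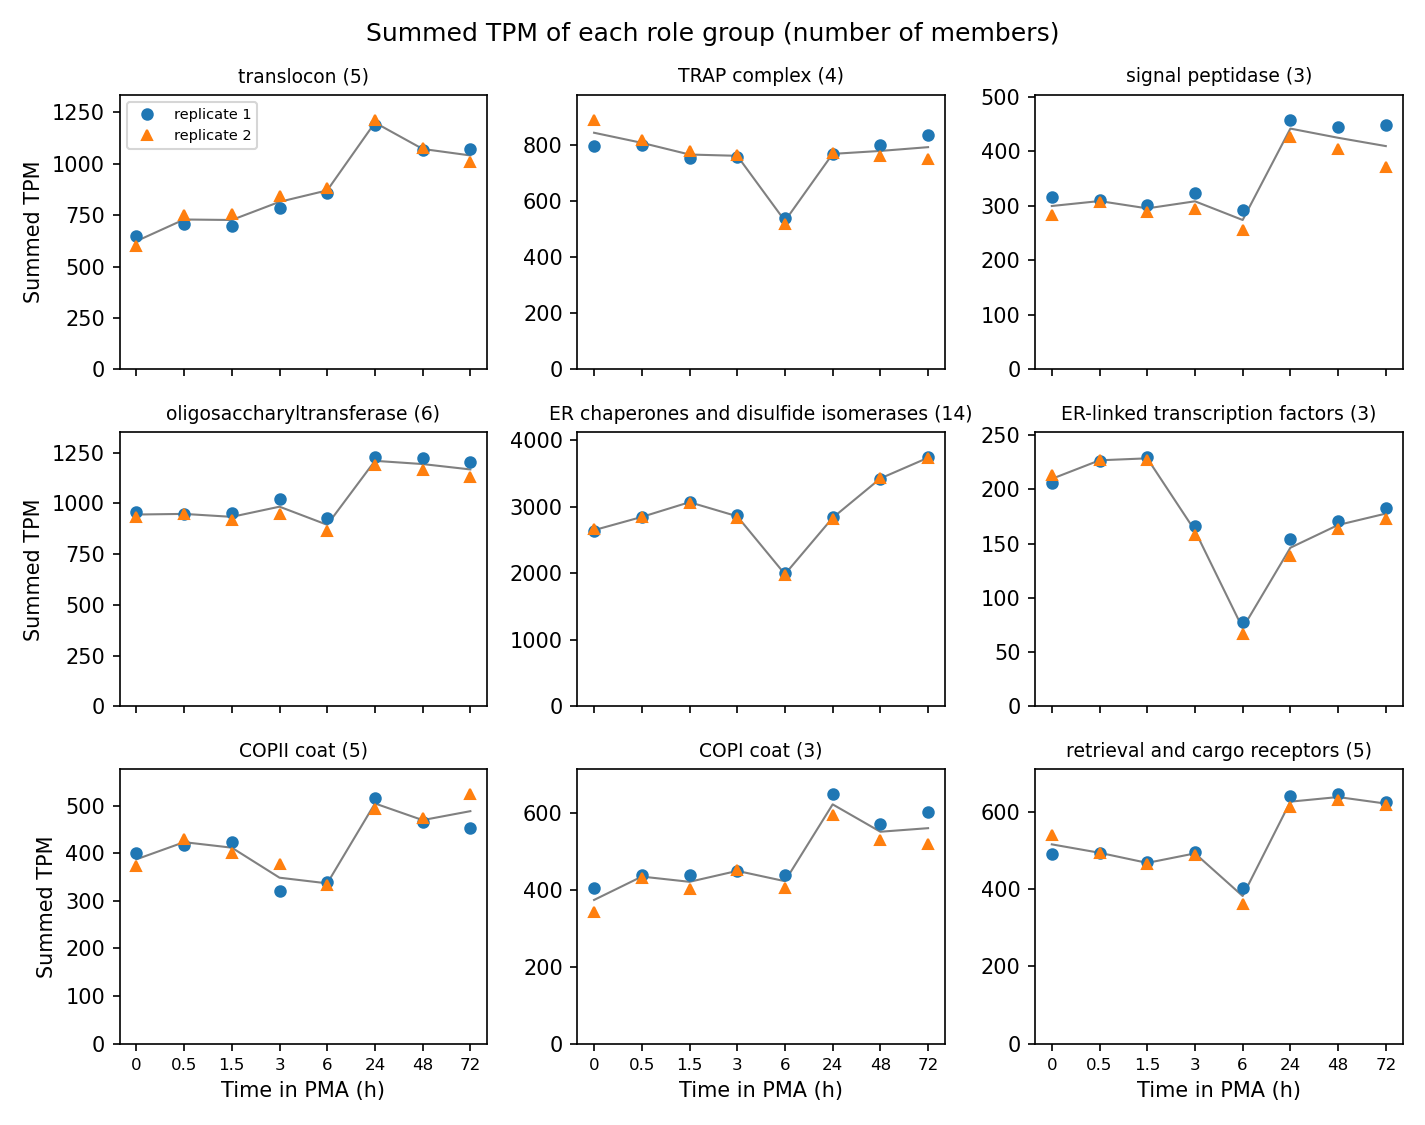
Summed TPM of the members of each of the 9 role groups in each library (blue circles replicate 1, orange triangles replicate 2, grey line their mean) against time in PMA (not to scale). Each vertical axis starts at 0. Every sum except those of the translocon and the COPI coat has its lowest mean at 6 h, and the translocon sum is higher at each of 3, 6 and 24 h than before. TPM sums carry no TMM factors. In the fit with those factors 4 of the 6 oligosaccharyltransferase genes were higher and 1 lower at 6 h (27.8% and 29.4% of all genes).

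Other genes of the pathway were read from lists drawn up by role. At 72 h, of 137 tested genes in 11 lists, 53 (38.7%) were higher and 38 (27.7%) lower, near the shares of all genes (31.7% higher and 26.9% lower), against which the counts of the single lists at 72 h are also to be read. The median log2 fold change was 0.11, against 31 higher and 6 lower and a median of 0.50 for the 48 members. Among 12 genes of targeting and translocation 6 were higher and 1 lower. SEC11C, a catalytic subunit of signal peptidase, had the largest rise there (log2 fold change 2.47 ± 0.15, edgeR adjusted p = 9.09e-09), while SRP9 of the signal recognition particle had 0.27 (edgeR adjusted p = 0.326). Of 6 other oligosaccharyltransferase subunits 3 were higher and 1 lower, with TUSC3 at 1.22 ± 0.12 and OST4 at 0.43 ± 0.13. The 20 genes that build the lipid-linked sugar were even, 4 higher and 4 lower, among them DOLK (0.76) and DPM1 (0.53), both higher. Of 6 genes of glycan trimming 1 was higher and 3 lower, with MAN1B1 at -1.03 ± 0.11 and PRKCSH at -0.55 ± 0.14. Of 16 other folding enzymes 7 were higher and 5 lower, from PPIB (0.47), a prolyl isomerase, to ERP29 (-1.87), an isomerase-like protein.

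Of 18 tested genes of ER-associated degradation, which removes misfolded proteins, 13 were higher and 3 lower at 72 h, including EDEM3 (1.19 ± 0.14) and UFD1 (0.46 ± 0.08). Of 9 stress sensors and related factors 5 were higher and 2 lower. CREB3, a factor of the CREB3L2 family, was at 2.46 ± 0.16, and MBTPS1, the protease that releases ATF6, at 0.32 ± 0.08. Among 14 genes of the PERK and ATF4 branch 1 was higher and 12 were lower at 72 h, with a median of -1.24. ATF4 itself was lower (-0.69 ± 0.10), and SLC7A11, the cystine transporter, was at -4.20 ± 0.20. Their summed level was 2430 ± 8.34 TPM at 0 h, 705 ± 23.3 TPM at 24 h and 1088 ± 25.1 TPM at 72 h (SD, n = 2). Of 11 other COPII genes 4 were higher and 2 lower, with SAR1A, the GTPase that starts the coat, at 0.67 ± 0.09 and SEC13 at 0.07 ± 0.09. Of 12 other COPI and ARF genes 6 were higher and 2 lower, with ARFGAP3 at 1.26 ± 0.10 and ARF1 at 0.14 ± 0.12. Of 13 other cargo receptors 3 were higher and 3 lower. MCFD2, which works with LMAN1, was at 1.17 ± 0.11, and KDELR1, the remaining KDEL receptor, at 0.00 ± 0.14.

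The late state of these cultures is set out by the transcripts of secreted proteins. Of 26 listed genes for secreted cargo 23 were tested, and 16 were higher and 1 lower at 6 h (27.8% and 29.4% of all genes), 21 higher and 1 lower at 72 h (31.7% and 26.9%). The list was drawn up with earlier results of these data known, so these counts describe it and are no independent test. Their summed level was 793 ± 103 TPM before treatment, 8915 ± 231 by 6 h, 29230 ± 2142 by 24 h and 29447 ± 3797 by 72 h (SD, n = 2). TIMP1, an inhibitor of matrix proteases, made up most of it, with 228 and 331 at 0 h, 5987 and 6584 at 6 h, 23666 and 29029 at 72 h in TPM, and the other cargo genes together had 513 ± 29.8, 2629 ± 192 and 3099 ± 4.59 TPM at these times. MMRN1, a platelet granule protein, was listed at 0 in both 0 h libraries and had 6.16 and 4.84 at 72 h in CPM. The 48 members together had 6848 ± 11.3 TPM before treatment, 5770 ± 160 by 6 h, 8355 ± 128 by 24 h and 8996 ± 250 by 72 h. The ratio of cargo to member TPM was 0.116 ± 0.015 before treatment, 1.55 ± 0.083 by 6 h and 3.28 ± 0.513 by 72 h. These sums are in TPM, without the TMM factors. On that scale the cargo sum at 6 h was above its 0 h level, and the member sum was at its lowest. In the fit with TMM factors 19 members were higher and 14 lower at 6 h (27.8% and 29.4% of all genes). Their median log2 fold change there was 0.07, so the low member sum at 6 h depends on the scaling.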

How the data were processed

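The 16 K562 libraries (8 time points, 2 each) were made from total RNA with ribosomal RNA removed, as the labels' protocols state. The submitters' processing notes name Trim Galore 0.4.3, Salmon, HISAT2 2.1.0, SAMtools 1.9, deepTools 3.0.1, R 3.3.1, DESeq2 and DESeq 1.33.5 and the builds hg19 and hg38, without roles. The Salmon version, the transcript set and whether strand was used are not given in the sources used here. The deposited files give, per the file headers, estimated counts and TPM for each transcript, made by the authors with no pooling of libraries.

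Transcripts were matched by Ensembl ID to GENCODE release 29 (GRCh38), from which the coordinates come. Of 177456 transcripts 167027 (94.12%) matched, and the unmatched held 3.01 to 3.75% of reads. Estimated counts were summed over 35052 genes and rounded to whole numbers, and 17559 genes passed filterByExpr. One edgeR (4.0.16, R 4.3.3) quasi-likelihood fit over all 16 libraries with TMM factors (0.854 to 1.139) gave every comparison, with Benjamini-Hochberg adjustment over all genes tested and a threshold of 0.05. DESeq2 1.42.0 was an alternative. Tested on simulated counts for 72 h against 0 h over 17559 genes, the fit recovered 75% of genes changed 2-fold and 96% of those changed 4-fold, with 13 false calls among 184. Far fewer genes changed in the simulation than were called in the data. TPM was summed per gene for levels. Spliced shares of XBP1 have 95% Wilson intervals. Promoters are from the RefSeq table.

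The members and lists were chosen with earlier results of these data known. Values in every library are given for the member of each role group with the largest absolute log2 fold change at 72 h, the one with the highest mean TPM, any called at 72 h against its group's median, and HSPA5, XBP1, KDELR2 and KDELR3, with SDF2L1 and DNAJB9 added after their values were seen. From every other list the gene with the highest mean TPM and the called gene with the largest change at 72 h are named. The replicate numbers were not treated as pairs, since no source says that they mark a shared culture and not every pair of time points had a correlation of deviations over 0.1. Other scalings, filters and tools, a GC correction, a stricter threshold and each library left out in turn were tried as alternatives.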

Additional observations from a re-analysis of the deposited data

Results flagged for a closer look

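For 6 members the difference from 0 h had opposite signs at 6 h and 72 h, lower at the first and higher at the second, and the difference between the times was itself called in the same edgeR fit. The share of all genes tested that were lower at 6 h and higher at 72 h was 3.72%. The 2 comparisons share the 0 h libraries, whereas the direct difference of 72 h minus 6 h does not use them as a reference. That difference was 2.55 on the log2 scale for KDELR3, 1.73 for SEC24D, 1.60 for DNAJB9, 1.30 for TMED10, 1.23 for SSR1 and 0.71 for SEC23B. All 6 were called in it under each of the 26 alternatives run. The call of SEC23B at 6 h was lost under 9 of them. Against 0 h, the 72 h calls of SSR1 and DNAJB9 were lost with the 0 h and 0.5 h libraries as one baseline. They were also lost when single libraries were left out, as was the 6 h call of DNAJB9.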

How the results depend on the processing

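Over 153 results and 3978 values under alternatives, 3730 kept their direction and side of the threshold, 183 fell short of it, 32 newly passed it and 33 turned direction. The cause of each change was not tested. With 2 libraries a group, small differences can be missed. The fit recovered 75% of simulated 2-fold changes, but far fewer genes changed there than the 58.6% called at 72 h here. The share recovered in these data was therefore not measured. With DESeq2's size factors 0 members were called from 0.5 h to 1.5 h and 2 from 24 h to 48 h. With total counts 8 were called at 1.5 h and 18 at 3 h. With no filter 5 were called at 0.5 h, 20 at 1.5 h and 1 from 48 h to 72 h. With at least 10 counts 3 were called from 24 h to 48 h, and with counts from TPM 2. With the GC trend removed 7 were called at 1.5 h, 2 from 0.5 h to 1.5 h and 33 from 1.5 h to 3 h. At an adjusted p under 0.01 the counts were 3 at 1.5 h, 0 from 0.5 h to 1.5 h, 5 from 1.5 h to 3 h, 14 from 3 h to 6 h and 1 from 24 h to 48 h. With the 0 h and 0.5 h libraries as one baseline, chosen after seeing the data, 2 were called at 1.5 h. As a percent of all TPM the members held 0.709 before treatment, 0.596 by 6 h, 0.862 by 24 h and 0.931 by 72 h. The spliced share of XBP1 at 72 h was 48.6% from TPM and, for the most used pair of transcripts (chosen after seeing the data), 48.2%. For that pair the 0 h libraries stood far apart, at 26.5 and 4.19%.

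Deviations of same-numbered libraries correlated with r from -0.118 to 0.211 over 28 pairs of time points (median 0.0978), over 0.1 for 14 of the 28, and the CPM of CANX was higher in replicate 2 at all 8 time points. Some deviation is thus shared by number, but not by every pair, and the labels give no pairing. The median gap between length and listed effective length, for transcripts over 1000 bases, was larger in replicate 2 at every time after 0 h. It was 213 and 248 bases at 0.5 h and 218 and 229 at 72 h. At 0 h replicate 2 had the smaller gap, 199 against 217 bases. The part of this gap in the results was not tested. A fit with a replicate block called 0 members against 0 h by 0.5 h, 17 by 1.5 h, 33 by 3 h, 35 by 6 h, 41 by 24 h, 37 by 48 h and 39 by 72 h, and 2 from 0.5 h to 1.5 h. With each library left out in turn the counts against 0 h lay between 0 and 12 for 0.5 h, 2 and 21 for 1.5 h, 19 and 33 for 3 h, 28 and 34 for 6 h, 32 and 38 for 24 h, 31 and 38 for 48 h, and 31 and 40 for 72 h. The steps ranged from 0 to 1 (0.5 h to 1.5 h), 4 to 18 (1.5 h to 3 h), 13 to 23 (3 h to 6 h), 19 to 32 (6 h to 24 h), 1 to 11 (24 h to 48 h) and 0 to 0 (48 h to 72 h). For 72 h against 6 h the range was 18 to 30, and for any difference 40 to 46.

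With total counts the values that turned direction were -0.14 for SPCS3, -0.19 for RPN2, -0.044 for DNAJB11 (6 h); -0.21 for RPN2 (24 h); -0.019 for KDELR2 (72 h); 0.12 for HYOU1, 0.15 for COPA, 0.017 for TMED2 (72 h minus 6 h). With counts from TPM the values that turned direction were -0.19 for SPCS3, 0.082 for SEC23B (6 h); -0.032 for KDELR2 (72 h); -0.00185 for SPCS2, 0.077 for HYOU1 (72 h minus 6 h). With the GC trend removed the values that turned direction were 0.16 for SSR4, 0.11 for DDOST, 0.38 for CALR, 0.13 for CREB3L2, 0.074 for KDELR2 (6 h); -0.17 for SSR4, -0.16 for SPCS2, -0.20 for SEC31A (72 h minus 6 h). With single libraries left out, RPN2 at 24 h ranged from -0.0961 to 0.20, turning without 0 h replicate 1 or 24 h replicate 2. SPCS3 at 6 h ranged from -0.033 to 0.55, turning without 0 h replicate 2. CALR at 6 h ranged from -0.17 to 0.058, turning without 0 h replicate 2 or 6 h replicate 1. SSR4 at 72 h ranged from -0.45 to 0.11, turning without 0 h replicate 2. SEC31A in 72 h minus 6 h ranged from -0.044 to 0.056, turning without 6 h replicate 1 or 72 h replicate 1. SPCS2 in 72 h minus 6 h ranged from -0.21 to 0.24, turning without 6 h replicate 2 or 72 h replicate 1. KDELR2 at 72 h ranged from -0.098 to 0.36, turning without 72 h replicate 1. COPA in 72 h minus 6 h ranged from -0.15 to 0.0501, turning without 72 h replicate 2.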
